A study of Mus musculus with 4 samples.

Results

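ATP-dependent chromatin remodelers slide, evict or exchange nucleosomes, and the genes of the SWI/SNF family and of related remodelers were compared between a JQ1-sensitive (JQ1S) and a JQ1-resistant (JQ1R) mouse cell line. The genes were chosen by their symbols. They comprise the Smarc, Arid and Chd families together with Actl6a, Pbrm1, Dpf1, Dpf2, Dpf3, Phf10, Bcl7a, Bcl7b, Bcl7c, Ss18, Ino80, Srcap, Ep400, Hells and Atrx. In the annotation 50 genes met the rule, and 48 of them were among the 16591 genes of the deposited table. The other 2, Smarca1 and Arid3c, have no row there and were not analysed here. Of the 48 genes 46 code for proteins and 2, Smarca5-ps and Smarce1-ps1, are pseudogenes that the symbol rule took as well.

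Both lines are Eμ-Myc cells of C57BL/6 origin, B-lymphoma cells in which Myc is driven by the immunoglobulin heavy-chain enhancer, and both were cultured at early passage with no drug named in the labels. JQ1 blocks the acetyl-lysine pocket of BET bromodomain proteins. RNA was sequenced from 2 libraries of each line. With 1 line of each kind, resistance and whatever else separates these lines cannot be told apart. The labels do not state whether replicates were grown as separate cultures. P-values therefore measure only the spread between these libraries, which may be technical.

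Mammalian SWI/SNF complexes, called BAF, are built around an ATPase, either SMARCA4 (BRG1) or SMARCA2 (BRM). A core of SMARC subunits is shared, and ARID1A or ARID1B marks canonical BAF whereas ARID2, PBRM1 and PHF10 mark the PBAF form. The ISWI, CHD and INO80 families are further classes of remodeling ATPase, with SMARCA5, CHD4 (in the NuRD complex) and INO80 as well-known members. In B-cell development SMARCA4 is needed for the early lineage programme, and mutations in ARID1A and SMARCA4 recur in human B-cell lymphomas.

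Total counts per library ranged from 10346007 to 13048103, and a count of 1 corresponded to 0.0771 to 0.0972 CPM, where CPM is the count scaled to the library total and its TMM factor. All 8 B-cell markers examined were expressed, with summed levels of 2150 to 2340 CPM. Of 5 T-cell markers only Cd3d had a row, at 0.231 CPM or less. The summed levels were 1.17 to 2.11 CPM for myeloid markers and 0.253 to 1.01 CPM for NK markers, and 0 of 4 erythroid markers had a row. Among 4 markers of stroma and endothelium, Cdh5 stood at 1.17 to 1.56 CPM and Pecam1, which lymphocytes also express, at 87.2 to 99.1 CPM. In bulk RNA, fewer cells of a type and less RNA per cell cannot be told apart.

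Few remodeler genes differed between the lines. Of 45 members tested, 2 passed the quasi-likelihood test of edgeR at an adjusted p below 0.05, a share of 4.44% beside 3.73% of all 11945 tested genes. The ATPase gene Smarca2 rose, beside 2.2% of all genes called higher, and Arid3a fell, beside 1.52% called lower. At an unadjusted p below 0.05 there were 3 members (6.67%), these 2 and Chd2, beside 16.9% of all genes. Sensitive and resistant libraries were fully separated in 17 members (37.8%), beside 47.3% of all genes. The share called was near the background, and the shares at an unadjusted p below 0.05 and without overlap were under it. DESeq2 called 0 members, and limma-voom called the same 2 genes as edgeR.

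The changes were also small. Members had a median absolute log2 change of 0.07, against 0.11 over all tested genes. Between replicates, too, members differed less than all tested genes. Their median absolute log2 difference was 0.1 against 0.12 in the sensitive pair and 0.07 against 0.08 in the resistant pair. In 3 members, Smarca2, Arid3a and Chd3, the log2 change lay beyond that of a 1.2-fold difference. For 42 of the 45 the 95% interval of the change lay within 1.5-fold in either direction. The exceptions were the weakly expressed Dpf1, Chd3 and Smarce1-ps1. The median log2 change was -0.05, with 30 members negative and 15 positive, against 0.0033 and 49.1% negative over all tested genes. Without sensitive replicate 2 that median was 0.02, so its sign rested on 1 library.

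**Figure D1:**
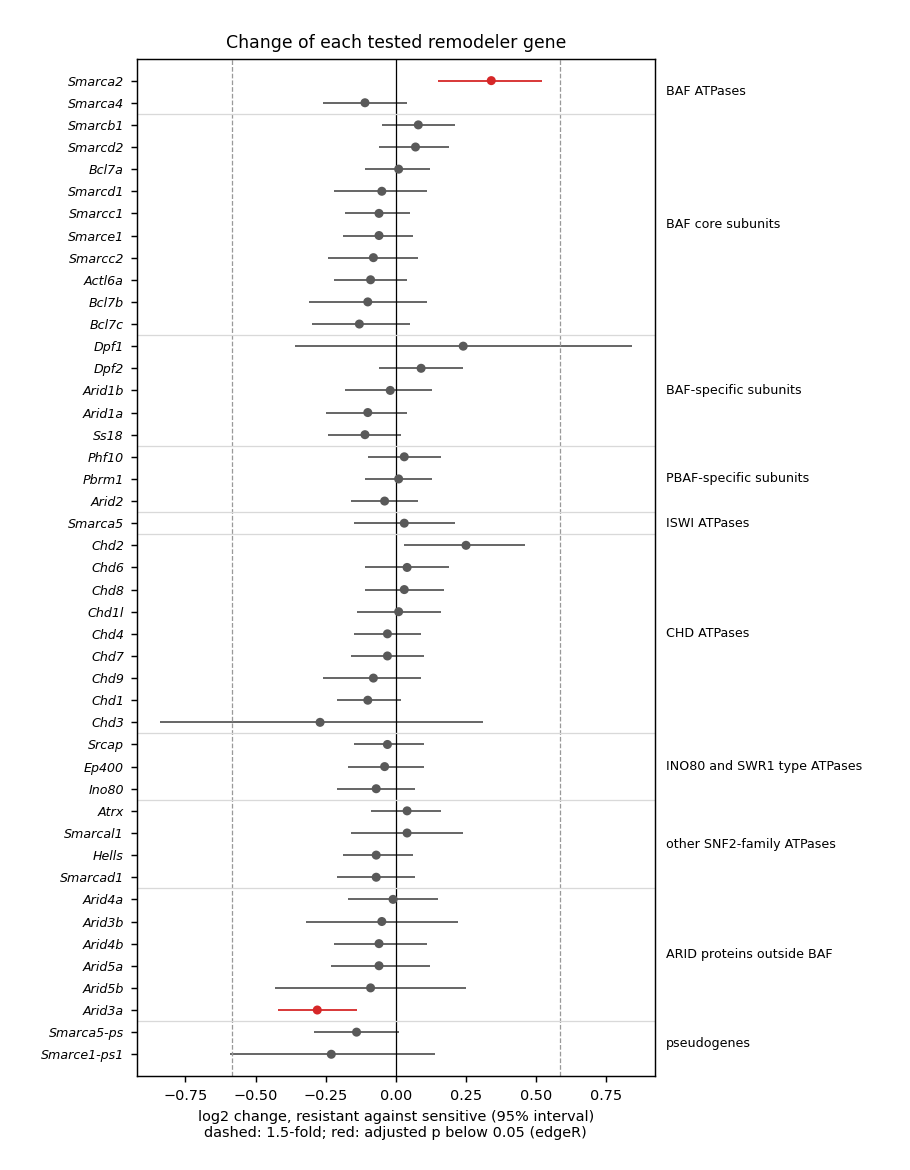
Log2 change of each of the 45 tested remodeler genes in resistant against sensitive cells (points) with its 95% interval (lines), grouped by role, with dashed lines at 1.5-fold and called genes in red. Smarca2 at 0.34 and Arid3a at -0.28 are the called genes, and 42 intervals lie between the dashed lines.

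Of the alternative BAF ATPases, Smarca2 rose and Smarca4 did not pass the test. Smarca2 (chr19:26605050-26778322 on GRCm38, plus strand) stood at 32.4 and 37.3 CPM in sensitive cells and at 44.0 and 43.7 CPM in resistant cells. Both resistant libraries were above both sensitive libraries. The means were 34.9 ± 3.44 CPM (SD, n = 2) and 43.9 ± 0.241 CPM (SD, n = 2), a 1.26-fold difference (95% interval 1.11 to 1.43) or 0.34 ± 0.09 on the log2 scale (SE; adjusted p = 0.0397, edgeR). The call was fragile. It was lost with DESeq2 (log2 change 0.33, adjusted p = 0.43), without resistant replicate 1 (0.33, adjusted p = 0.191) and without resistant replicate 2 (0.34, adjusted p = 0.183), where the change was about as large. It was also lost without sensitive replicate 1, where the log2 change was 0.23 (adjusted p = 0.0826).

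Smarca4 (chr9:21616169-21704230, plus strand) was the most abundant member, at 706 and 854 CPM in the sensitive and 730 and 712 CPM in the resistant libraries. Its sensitive libraries enclosed both resistant ones. The log2 change was -0.11 ± 0.07 (adjusted p = 0.455), and the interval allowed a level in resistant cells from 0.833 to 1.03 times that in sensitive cells. Without sensitive replicate 1 the log2 change of Smarca4 was -0.24 and edgeR called it lower (adjusted p = 2.51e-06). Leaving out sensitive replicate 2 instead gave 0.03.

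The bases just upstream of the RefSeq start of these ATPase genes are printed because Smarca2 is the only remodeler ATPase that was called and Smarca4 is its paralogue. They come from RefSeq on GRCm38.p6, 250 bases each on the plus strand, with GC boxes (GGGCGG on either strand, the core of an SP1 site) in capitals. The Smarca2 stretch is chr19:26604910-26605159 and that of Smarca4 is chr9:21615919-21616168.
Smarca2: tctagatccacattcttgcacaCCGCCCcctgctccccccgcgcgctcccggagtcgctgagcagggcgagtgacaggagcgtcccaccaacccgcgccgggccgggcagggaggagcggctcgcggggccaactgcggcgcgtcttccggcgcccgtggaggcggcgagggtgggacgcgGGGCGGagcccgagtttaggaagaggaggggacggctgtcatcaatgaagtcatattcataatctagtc
Smarca4: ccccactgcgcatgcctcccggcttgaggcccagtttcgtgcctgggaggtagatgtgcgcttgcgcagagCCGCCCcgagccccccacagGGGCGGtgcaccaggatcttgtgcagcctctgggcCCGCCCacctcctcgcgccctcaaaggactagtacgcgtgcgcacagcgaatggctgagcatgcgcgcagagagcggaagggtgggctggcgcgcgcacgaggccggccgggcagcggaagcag
The Smarca2 stretch held 2 GC boxes and 28 CG dinucleotides, and the Smarca4 stretch held 3 and 25. In GENCODE M21 Smarca2 starts at chr19:26605050, so the end of its stretch, with the later GC box, lies within the annotated gene. The Smarca4 stretch ends just before its annotated gene, so the counts of the stretches are not fully alike. A GC box stood in 29 of 38 start windows of tested members (76.3%), each from 250 bases before to 50 after a start, beside 63.5% of 10504 windows of all tested genes and 35.7% of all 32851 windows. Windows were found for 33 of the 45 tested members.

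The shared core of BAF was at similar levels in both lines. None of 10 tested core subunits passed edgeR's test, and none had an unadjusted p below 0.05. Smarcb1, the core subunit lost in rhabdoid tumours, stood at 116 and 116 CPM in the sensitive and 126 and 120 CPM in the resistant libraries, with a log2 change of 0.08 ± 0.06 (adjusted p = 0.535, edgeR). The resistant libraries of Smarcb1 were slightly above the sensitive ones, and its interval reached at most 1.16-fold.

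The scaffold genes Smarcc1 and Smarcc2 differed in how they varied. Smarcc1 stood at 401, 415, 386 and 393 CPM (sensitive replicates 1 and 2, then resistant replicates 1 and 2), with both resistant libraries below both sensitive ones and a log2 change of -0.06 ± 0.05. Smarcc2 stood at 151, 180, 162 and 151 CPM in the same order, with sensitive replicate 2 above the other libraries. Its log2 change was -0.08 ± 0.08, or -0.20 without sensitive replicate 1, where it was called lower (adjusted p = 0.00728), and 0.05 without sensitive replicate 2.

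Among the SMARCD subunits, which link the complex to transcription factors, Smarcd2 was the highest at 240, 252, 264 and 251 CPM (log2 change 0.07 ± 0.06) and Smarcd1 stood at 59.5, 67.0, 63.2 and 58.3 CPM (-0.05 ± 0.08). Smarcd3, the form of heart and muscle, did not pass the filter on low counts, with 15, 9, 8 and 9 counts. Of its exonic bases 48.2% lie under exons on the other strand, mostly those of Chpf2, and the strand setting of the counting is not given in the sources used here. The libraries of Smarcd1 and Smarcd2 overlapped between the lines.

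Smarce1, which carries an HMG box, stood at 203, 203, 203 and 188 CPM, and the actin-related gene Actl6a at 119, 119, 114 and 109 CPM. In Smarce1 only resistant replicate 2 stood clearly lower, and in Actl6a both resistant libraries lay below the sensitive ones. The log2 changes were -0.06 ± 0.06 in Smarce1 and -0.09 ± 0.06 in Actl6a, with edgeR adjusted p-values of 0.661 and 0.47. Of the exonic bases of Actl6a 11.6% lie under exons of Mrpl47 on the other strand. The BCL7 subunits were led by Bcl7a, at 430, 454, 443 and 444 CPM, a gene known from B-cell lymphoma translocations. Its log2 change was 0.01 ± 0.05. Bcl7b stood at 31.5, 38.4, 33.4 and 31.6 CPM and Bcl7c at 37.1, 37.2, 35.4 and 32.7 CPM, with log2 changes of -0.10 and -0.13 that did not pass.

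Of the subunits grouped here as belonging to BAF but not to PBAF, 0 of 5 tested passed, and 0 had an unadjusted p below 0.05. Arid1a, a frequent tumour suppressor gene, stood at 295 and 345 CPM in the sensitive and 301 and 295 CPM in the resistant libraries. Sensitive replicate 2 was again above the other libraries, and the log2 change was -0.10 ± 0.07 (adjusted p = 0.479, edgeR). Without sensitive replicate 1 Arid1a was called lower (-0.21, adjusted p = 0.000441), whereas leaving out sensitive replicate 2 gave 0.01. Its alternative Arid1b stood at 162, 194, 178 and 172 CPM with a log2 change of -0.02 ± 0.07.

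Ss18, known from the synovial sarcoma fusion, stood at 163, 163, 144 and 158 CPM, with both resistant libraries below the sensitive ones (log2 change -0.11 ± 0.06, adjusted p = 0.395). The DPF subunits read acetylated histones with paired PHD fingers. Dpf2, the general form, stood at 70.9, 71.5, 79.3 and 72.1 CPM (log2 change 0.09 ± 0.07). Dpf1, a neuronal form, was scarcely expressed at 2.24, 4.37, 4.30 and 3.28 CPM, so its log2 change of 0.24 ± 0.28 had an interval from -0.36 to 0.84. Dpf3 had 6, 5, 3 and 4 counts and was not tested.

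The PBAF-specific genes had log2 changes between -0.04 and 0.03. Pbrm1, whose protein carries several bromodomains in tandem, stood at 189, 188, 187 and 193 CPM (log2 change 0.01 ± 0.06). Arid2 stood at 225, 229, 217 and 224 CPM (-0.04 ± 0.06), and Phf10 at 112, 112, 112 and 116 CPM (0.03 ± 0.06). All 3 intervals lay between 0.894-fold and 1.11-fold, and 0 of the 3 passed the test or had an unadjusted p below 0.05.

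The ISWI ATPase gene Smarca5, which encodes SNF2H, stood at 53.8 and 46.9 CPM in the sensitive and 48.5 and 54.6 CPM in the resistant libraries. Its libraries interleaved, with a log2 change of 0.03 ± 0.09 (adjusted p = 0.903, edgeR). Smarca5-ps, a processed copy on another chromosome, had more counts than its parent, at 77.0, 72.8, 70.2 and 66.1 CPM. Its resistant libraries lay below its sensitive ones, without passing the test (-0.14 ± 0.07, adjusted p = 0.333). Parent and copy together came to 131, 120, 119 and 121 CPM.

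Counts for this pair are uncertain because the sequences are nearly identical to each other and partly shared with a further gene. The transcript of Smarca5-ps aligned to that of Smarca5 over 3116 bases with 98.1% identity and 60 mismatches, and the longest identical run was 254 bases. Of the windows of 50 bases in Smarca5 transcripts, 28.2% also occur in a transcript of another gene, and of those in Smarca5-ps 62.3% do. The gene sharing most windows with either was Gm13135, with 17.6% of those of Smarca5 and 45.9% of those of Smarca5-ps, and it stood at 1.10 to 1.85 CPM. The most divergent stretch of 90 bases within a coding exon is printed to show how few positions could tell reads of parent and copy apart. Both sequences are the transcript strand from GENCODE M21 on GRCm38, with the 5 differing bases in capitals. The Smarca5 stretch is chr8:80710587-80710676 on the minus strand, and that of Smarca5-ps is chr4:145466320-145466409 on the plus strand.
Smarca5: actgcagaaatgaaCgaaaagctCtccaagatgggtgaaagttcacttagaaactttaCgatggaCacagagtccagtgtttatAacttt
Smarca5-ps: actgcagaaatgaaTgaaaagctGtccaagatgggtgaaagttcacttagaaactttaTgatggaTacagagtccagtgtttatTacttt
The other pseudogene, Smarce1-ps1, had 98.3% identity with Smarce1 over 1077 bases and stood at 8.40, 7.97, 5.86 and 8.08 CPM. Its log2 change of -0.23 ± 0.17 did not pass (adjusted p = 0.549).

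Most CHD ATPases bind nucleosomes through paired chromodomains, and 0 of 9 tested members of this group, Chd1l included, were called. Chd2 (chr7:73426638-73541830, minus strand) came closest, at 40.5 and 53.0 CPM in the sensitive and 53.9 and 55.9 CPM in the resistant libraries. Only sensitive replicate 1 stood apart, and the log2 change of 0.25 ± 0.10 had an unadjusted p of 0.0261 and an adjusted p of 0.216 in edgeR. It was 0.44 and called without sensitive replicate 2 (adjusted p = 5.6e-06), and 0.05 without sensitive replicate 1, so this difference rested on 1 library. Of the exonic bases of Chd2 18.4% are shared with the gene 1810026B05Rik on the same strand, whose reads could not be told apart from those of Chd2 there.

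Chd4, the main ATPase of NuRD, stood at 560, 602, 579 and 558 CPM with a log2 change of -0.03 ± 0.06. Its paralogue Chd3 was at 2.39, 2.72, 2.11 and 2.10 CPM (-0.27 ± 0.27) and the neuronal Chd5 at 1, 2, 3 and 2 counts, below the filter. Chd1, which follows elongating polymerase, stood at 374, 374, 344 and 356 CPM, with both resistant libraries below the sensitive ones (-0.10 ± 0.05, adjusted p = 0.401). Chd1l, whose product is recruited by poly(ADP-ribose) at DNA breaks, stood at 62.7, 60.4, 63.5 and 60.6 CPM.

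The genes of the CHD subfamily of Chd6, Chd7, Chd8 and Chd9 were expressed at moderate levels with overlapping libraries. Chd7, the gene of CHARGE syndrome, stood at 147, 157, 151 and 146 CPM and Chd8, a gene linked to autism, at 149, 164, 155 and 163 CPM. Chd6 stood at 66.8, 73.0, 71.7 and 72.1 CPM and Chd9 at 56.6, 66.7, 59.3 and 56.5 CPM. Their log2 changes ranged from -0.08 in Chd9 to 0.04 in Chd6.

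The large ATPases of the INO80 and SWR1 type, which exchange or edit the histone variant H2A.Z, had 0 of 3 called. Ino80 stood at 104, 107, 104 and 96.6 CPM (log2 change -0.07 ± 0.06), Srcap at 266, 292, 271 and 276 CPM (-0.03 ± 0.06) and Ep400 at 236, 271, 244 and 249 CPM (-0.04 ± 0.07). Sensitive replicate 2 was the highest library in all 3 genes. The annotation places 61.7% of the exonic bases of Srcap also in Gm42715, a gene on the same strand.

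The remaining SNF2-family ATPases also had 0 of 4 called. Hells, which supports DNA methylation and is high in dividing lymphoid cells, was at 353, 330, 321 and 331 CPM (-0.07 ± 0.06 on the log2 scale, adjusted p = 0.618). Atrx, which deposits histone H3.3 with DAXX, stood at 283, 299, 289 and 307 CPM (0.04 ± 0.06). The fork-protection gene Smarcal1 stood at 32.9, 37.6, 33.8 and 38.3 CPM, and Smarcad1, which acts in DNA-end resection and heterochromatin, at 70.8, 67.9, 66.0 and 66.3 CPM. The libraries of Smarcad1 did not overlap between the lines, with a log2 change of -0.07 ± 0.07. No gene of this class or of the INO80 and SWR1 type had an unadjusted p below 0.05.

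The ARID proteins outside BAF bind AT-rich DNA or act with other chromatin regulators, and here Arid3a fell. Arid3a (chr10:79927043-79955018, plus strand), also called Bright, is a B-cell factor that binds the heavy-chain enhancer region and raises immunoglobulin transcription, and it is no part of a remodeling complex. It stood at 141 and 146 CPM in the sensitive and 123 and 113 CPM in the resistant libraries. Both resistant libraries lay below both sensitive ones. The means were 143 ± 3.22 CPM and 118 ± 7.31 CPM (SD, n = 2 each), and the resistant level was 0.824 times the sensitive one (95% interval 0.75 to 0.905), or -0.28 ± 0.06 on the log2 scale (adjusted p = 0.0196, edgeR). The call was lost with DESeq2 (log2 change -0.28, adjusted p = 0.0773) and without resistant replicate 2 (log2 change -0.22, adjusted p = 0.483), and it was kept without each of the other libraries.

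Its relatives did not pass. Arid3b stood at 14.3, 13.8, 12.4 and 14.8 CPM (log2 change -0.05 ± 0.13). Arid4a and Arid4b, partners of the retinoblastoma protein and of the SIN3 corepressor, stood at 48.6, 50.5, 50.2 and 48.3 CPM and at 64.6, 59.5, 56.2 and 63.0 CPM. Arid5a, which stabilises inflammatory mRNAs, stood at 49.8, 58.1, 52.4 and 50.9 CPM, and Arid5b, a risk locus of childhood B-lymphoblastic leukaemia, at 8.02, 9.72, 8.97 and 7.58 CPM. In these 5 genes the libraries of the lines overlapped, and log2 changes ranged from -0.09 to -0.01.

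Levels were compared between genes as CPM per kb of annotated exon, since long transcripts give more reads. Members tended to be well expressed, with a median at the 68.2 percentile of tested genes and 30 of 45 above the median gene. Smarca4 led with 109, 132, 113 and 110 CPM per kb, followed by Chd4 with a mean of 71.7 and Smarcd2 with 70.1 CPM per kb. The libraries of Chd4 (69.6 to 75.1 CPM per kb) and of Smarcd2 (66.8 to 73.6) overlap, so their order is not set. Next came Smarcc1 (50.9), Bcl7a (46.7), Hells (46.3) and Chd1 (41.5 CPM per kb). The exon length counts every annotated isoform, retained introns included, so genes with many isoforms appear lower on this scale.

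**Figure D2:**
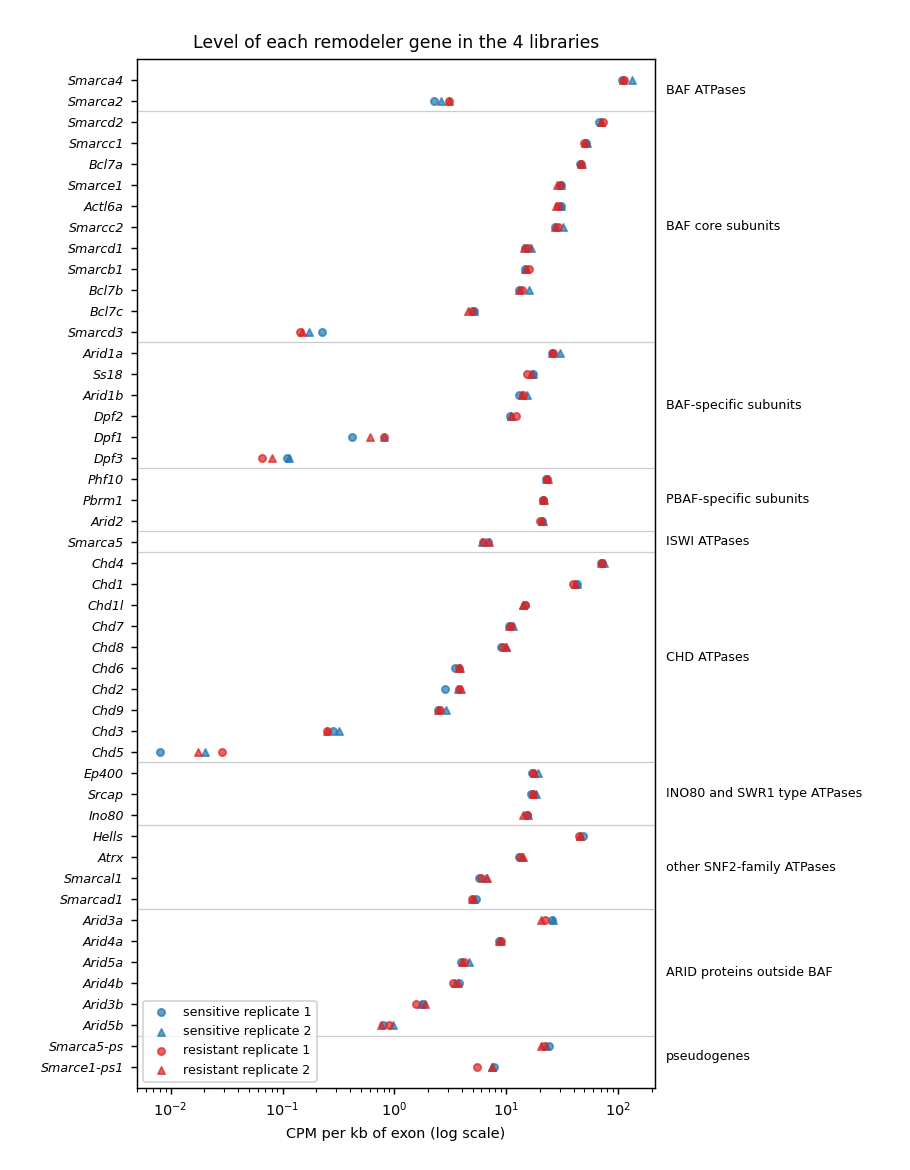
Level of each of the 48 members in CPM per kb of exon (log axis) in the 4 libraries, with sensitive libraries in blue, resistant libraries in red and replicates by symbol. Smarca4 lies at 109 to 132 CPM per kb and its paralogue Smarca2 at 2.27 to 3.09.

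Within families of paralogues, 1 member mostly dominated and the proportions were close in both lines. Smarca2 took 2.04% and 1.94% of the summed CPM per kb of Smarca2 and Smarca4 in sensitive cells and 2.66% and 2.71% in resistant cells. From counts not divided by exon length the share was 4.39% and 4.19% against 5.69% and 5.78%, so the difference was 0.69 percentage points per length and 1.44 without it. The lines did not overlap in this share on either scale, and per length Smarca4 held 97.3% to 98.1% of the pair in every library. The share of Arid1a in the ARID1 pair was 66.6% and 66.1% in the sensitive and 65.0% and 65.3% in the resistant libraries. Here too the lines did not overlap, with means 1.25 percentage points apart. Neither Arid1a nor Arid1b passed the test by itself with all libraries. Full separation of 2 against 2 libraries was common, and the levels of 47.3% of all tested genes had it.

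Chd2 took 6.19% and 7.94% of the Chd1 and Chd2 sum in the sensitive libraries and 8.73% in each resistant library. Smarcd2 took 81.7% and 80.7% of the SMARCD sum in the sensitive and 82.3% and 82.7% in the resistant libraries. The lines again did not overlap, with means 1.31 percentage points apart. Smarcc1 took 65.3%, 62.0%, 62.8% and 64.8% of the SMARCC sum, with overlap between the lines. Chd4 held 99.5% to 99.6% of the NuRD ATPases and Dpf2 92.2% to 95.4% of the DPF genes. Arid3a held 91.6% to 93.8% of Arid3a and Arid3b. Among Chd6, Chd7, Chd8 and Chd9 none dominated, with Chd7 at 39.6% to 41.6% and Chd8 at 35.2% to 37.0%. Arid4a held 69.4% to 72.9% of Arid4a and Arid4b per length, but 42.9% to 47.2% of their counts. With 2 against 2 libraries an exact two-sided permutation test cannot go below p = 0.333, so no test of the shares was made.

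**Figure D3:**
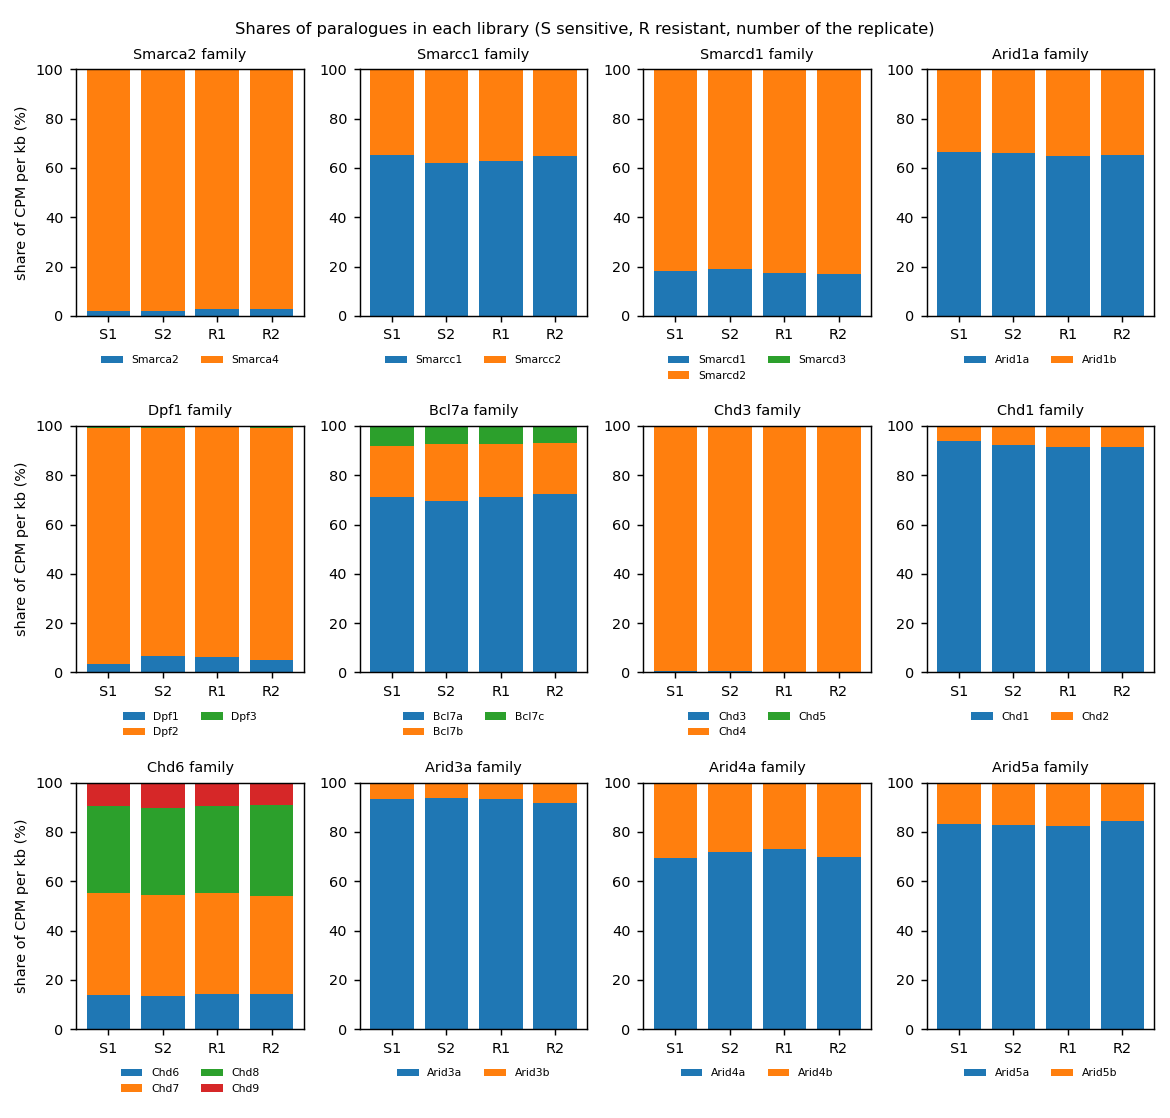
Share of each paralogue in the summed CPM per kb of its family (percent, stacked bars from 0) in sensitive replicates 1 and 2 (S1, S2) and resistant replicates 1 and 2 (R1, R2). The division is similar in all 4 libraries, and the share of Smarca2 lies at 1.94% to 2.04% in sensitive and 2.66% to 2.71% in resistant libraries.

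The sensitive libraries differed from each other in these genes by as much as the lines did. In 27 of 45 members the sensitive replicates were further apart than the mean levels of the lines, beside 53.7% of all tested genes. Single libraries vary more than means of libraries, so these differences are not like measures. Members were higher in sensitive replicate 2 than in replicate 1 in 35 cases (77.8%), against 50.3% of all tested genes, with a median log2 difference of 0.07. The 5 members that differed by more than 1.2-fold between the sensitive replicates were all higher in replicate 2. They were Dpf1 (log2 difference 0.97), Chd2 (0.39), Bcl7b (0.28), Arid5b (0.28) and Smarca4 (0.27). Just under that bound were Arid1b (0.26), Smarcc2 (0.25), Chd9 (0.24) and Arid1a (0.23). Between the resistant replicates 2 members, Smarce1-ps1 and Dpf1, differed by more than 1.2-fold.

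Base composition moved with the differences between replicates of both lines. Over the 45 members the Spearman correlation between the difference of the sensitive replicates and the GC content of the longest transcript was 0.59, and between the change between the lines and GC content it was -0.04. Over 11851 tested genes the former was 0.19. For the difference between the resistant replicates the correlation with GC content ran the other way, at -0.34 over the members and -0.15 over 11852 tested genes. The points share the same libraries and genes are not independent, so these are descriptions, and the part of base composition in the results was not tested. Transcripts at the extremes were Hells, with 37.7% GC and a log2 difference of -0.10, and Dpf1, with 57.6% GC and 0.97.

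Calls followed the library that was left out. Without sensitive replicate 1, 4 members were called, all lower (Smarca4, Arid1a, Smarcc2 and Arid3a), while 11.3% of all tested genes were called. Without sensitive replicate 2, 3 were called (Arid3a lower, Smarca2 and Chd2 higher), beside 9.68% of all genes. In both cases the share of members, 8.89% and 6.52%, was below that of all genes. A lone sensitive library is assumed in these fits to vary like the resistant pair.

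**Figure D4:**
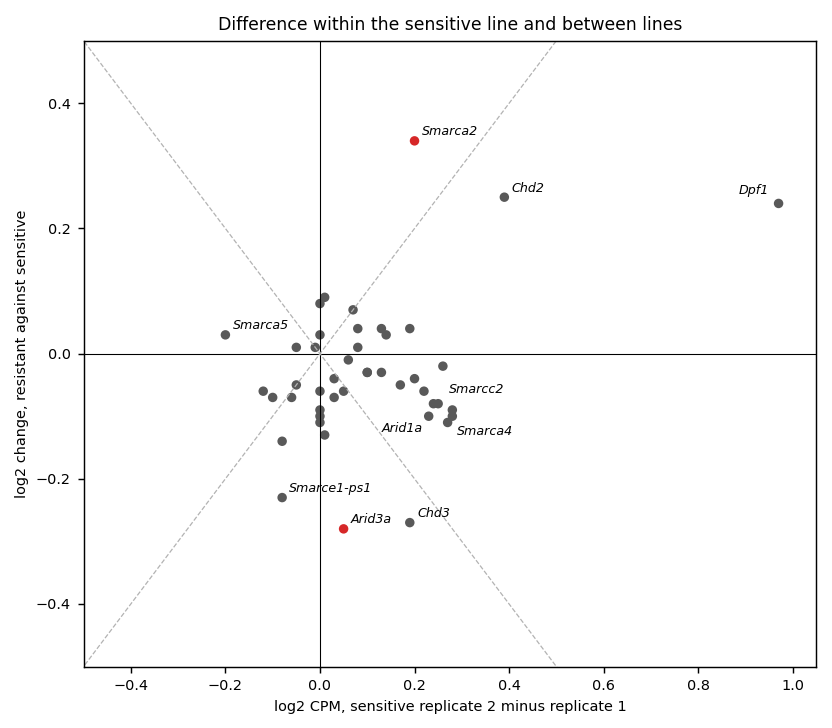
Log2 change between the lines (vertical axis) against the log2 CPM difference between the sensitive replicates (horizontal axis) for the 45 tested members, with called genes in red and dashed lines where both are equal in size. Smarca2 and Arid3a lie outside the dashed lines, whereas Smarca4, Arid1a, Smarcc2, Chd2 and Dpf1 differ more between the sensitive replicates than between the lines.

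The rest of each complex was examined through 70 further genes of subunits, partners and related ATPases, of which 69 were tested. edgeR, limma-voom and DESeq2 each called 0 of them. In edgeR 7 (10.1%) had an unadjusted p below 0.05, a share under the 16.9% of all tested genes, and the list had a median log2 change of -0.03. The 6 smallest p-values belonged to genes with negative changes. They were the NuRD subunits Gatad2a (log2 change -0.19, adjusted p = 0.0778) and Mbd2 (-0.20, adjusted p = 0.0959), the TBP-removing ATPase Btaf1 (-0.20), the INO80 subunit Ino80e (-0.16), the HELLS partner Cdca7 (-0.15) and Actb (-0.12), whose product is also a BAF subunit.

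Gatad2a stood at 243 and 242 CPM in the sensitive and 217 and 208 CPM in the resistant libraries, and Mbd2, which reads methylated DNA, at 95.6 and 96.0 against 83.0 and 83.4 CPM. Sensitive and resistant libraries were fully separated in both genes, as they were in 36 of the 69 genes (52.2%), beside 47.3% of all tested genes. By complex the median log2 change ranged from -0.10 over 10 NuRD partners to 0.04 over 15 partners of SRCAP and EP400. Without sensitive replicate 1 edgeR called 13 of these genes (18.8%), beside 11.3% of all genes. Without sensitive replicate 2 it called 7 (10.1%), beside 9.68% of all genes, with Gatad2a and Mbd2 lower in both fits.

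Since Myc drives these lymphomas, the start windows were searched for the E-box CACGTG, the palindromic site that MYC binds with MAX. It stood in 3 of 38 member windows (7.9%), beside 10.6% of windows of all tested genes and 7.2% of all windows. The 3 stretches of 30 bases are printed because they are the only members with the site in this window, with the E-box in capitals. They lie on GRCm38.p6 at chr5:135168212-135168241 (plus strand) for Bcl7b, chr7:127708903-127708932 (minus strand) for Bcl7c and chr14:31018991-31019020 (plus strand) for Pbrm1.
Bcl7b: cctggcccacacCACGTGcggacgacgatg
Bcl7c: cacccctgagccCACGTGgccggaacgcac
Pbrm1: cttctcgggcgcCACGTGcgaactggaact
The motif starts at -148, -154 and -135 relative to the RefSeq start in Bcl7b, Bcl7c and Pbrm1. In GENCODE M21 Bcl7c starts further upstream, at chr7:127708933, so its printed stretch lies within the annotated gene. The stretches of Bcl7b and Pbrm1 lie before their annotated genes. None of these 3 genes was called, and their log2 changes were -0.10, -0.13 and 0.01. A match of letters is a description and does not show that a factor binds there.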

How the data were processed

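RNA of 4 libraries was counted by the authors, who deposited raw counts for each Ensembl gene. Per the submitters' processing notes the tools were HTSeq, TopHat, Bowtie2, cutadapt 1.7, FastQC and limma, with the mm10 (GRCm38) build. Their roles, the strand setting and the annotation release were not stated there. No gene has fewer than 4 counts over the libraries.

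Symbols, positions and exon lengths came from GENCODE M21 (GRCm38), which matched 16407 of 16591 identifiers, and start windows came from RefSeq by symbol. All genes were fitted with edgeR 4.0.16 in R 4.3.3 by the quasi-likelihood test, with TMM factors, line as the only term and filterByExpr at 10 counts (15 in total). P-values were adjusted by Benjamini-Hochberg over all tested genes, and standard errors and 95% intervals derive from the F statistic. The fit was tested on simulated data in which all genes of both lines had the same spread beyond counting noise. An unequal spread of the lines was not simulated. DESeq2 1.42.0, limma-voom (limma 3.58.1), other scalings, no filter, a replicate block and leaving out each library were alternatives. Replicates differed by more than counting noise, with chi-square values per degree of freedom of 4.05 (sensitive) and 1.79 (resistant), so none was counted as a repeat deposit.

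The members, their grouping and the further list were chosen with earlier results of these data known. Apart from the symbol rule, a naming rule set which members were given with values. It took members that were called or had an unadjusted p below 0.05, chosen ATPases and subunits, paralogue families and the extreme log2 changes. The values of the other members are given too. In the further list the naming rule took called genes and the 6 smallest p-values.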

Additional observations from a re-analysis of the deposited data

How the results depend on the processing

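DESeq2 called 201 genes and 0 members, against 445 and 2 in edgeR, and the cause was not tested. With 1 library left out, the genes called ranged from 270 to 1381, the members called from 0 to 4, the further remodeler genes called from 0 to 13 and the median log2 change of members from -0.08 to 0.02. With the replicate number as a block, 595 genes and 2 members were called, the same 2 as without it. Same-numbered libraries showed no common deviation (correlation -0.02 across genes). A single correlation cannot show whether they were grown or prepared together, and the labels state no pairing. Other size factors, no scaling beyond library size, limma-voom and no filter on low counts each called Arid3a and Smarca2. Of 450 member values under the alternatives, 404 kept direction and side of the threshold, 6 were weaker, 4 were stronger and 36, in 25 members, changed sign. None of the 36 was called in either fit. For Arid4a the sign changed with library size alone (log2 change 0.0043). The log2 changes that changed sign on leaving out a library had ranges of Arid1a -0.21 to 0.01, Arid1b -0.15 to 0.11, Arid3b -0.19 to 0.07, Arid4a -0.04 to 0.02, Arid4b -0.14 to 0.02, Arid5a -0.17 to 0.05, Arid5b -0.24 to 0.04, Atrx -0.01 to 0.08 and Bcl7a -0.03 to 0.04. The further ranges were Bcl7b -0.24 to 0.04, Chd1l -0.02 to 0.04, Chd4 -0.08 to 0.02, Chd6 -0.02 to 0.10, Chd7 -0.08 to 0.01, Chd8 -0.04 to 0.10, Chd9 -0.20 to 0.03 and Dpf1 -0.21 to 0.75, and Ep400 -0.13 to 0.06, Pbrm1 -0.01 to 0.03, Smarca4 -0.24 to 0.03, Smarca5 -0.06 to 0.14, Smarcal1 -0.06 to 0.13, Smarcc2 -0.20 to 0.05, Smarcd1 -0.14 to 0.03 and Srcap -0.09 to 0.04. Members with few counts, such as Dpf1, had the widest intervals.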
